A study of Rattus norvegicus with 6 samples.

Results

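Integrins are the cell-surface receptors that hold cells to the extracellular matrix, and focal adhesion adaptors are the cytoplasmic proteins that tie integrin tails to actin filaments. A set of 34 genes was examined: 20 integrin chains and 14 adaptors, chosen by gene symbol from a gene table of 19088 rows. Of these, 33 were analysed (19 integrin chains and 14 adaptors), and Itgb2 was not analysed here. The samples were primary cultures from Sprague Dawley rats of nucleus pulposus, the soft centre of the disc between vertebrae. In the rShh group, 3 samples had received recombinant Sonic hedgehog, a secreted ligand of the Hedgehog pathway, at 200 ng/ml for 48 h. The Control group held 3 samples given DMSO, the solvent of the ligand, for the same time. Poly(A) RNA was sequenced, and the design asks how the ligand alters gene expression in these cells.

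Each integrin is a pair of 1 alpha and 1 beta chain, and the pairing sets the ligand. Itga1, Itga2, Itga10 and Itga11 pair with Itgb1 into receptors for collagens. Itga3, Itga6 and Itga7 give laminin receptors, with Itgb4 as an alternative partner of Itga6. Itga5, Itga8, Itgav and the beta chains that join Itgav read the arginine-glycine-aspartate (RGD) motif of fibronectin, vitronectin, osteopontin and related ligands. Inside the cell, talin and kindlin bind the beta tail and activate the receptor. Vinculin, paxillin, zyxin, the tensins and the complex of integrin-linked kinase, PINCH and parvin then build the link to actin. In the disc, integrin contacts with collagen, laminin and fibronectin are known routes by which nucleus pulposus cells sense their matrix.

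Total gene counts ran from 50758195 to 55501124 in the Control libraries and from 65116846 to 70031072 in the rShh libraries. No label states that replicates came from separate cultures or animals, so p-values reflect only how these libraries varied, and that variation may be technical. Counts of 4 Y-chromosome genes were 0 in every Control library and 912 to 7120 in the rShh libraries, so the treatment and a difference in the source animals cannot be told apart. Mitochondrial genes took 1.97% to 2.28% of counts in Control and 3.25% to 3.36% in rShh. Of 11 nucleus pulposus and notochord markers analysed, 4 stayed below 1 FPKM in every sample. Among the 10 tested, Acan, Ca12 and Sox9 rose, Krt8, Cd24, Foxa1, Foxa2, Pax1 and Col2a1 fell, and Foxf1 did not pass (edgeR). These shares were 30% higher and 60% lower, beside 31.5% and 28.8% of all tested genes. Ca12 passed the filter on low counts only through its rShh libraries and Col2a1 only through its Control libraries. Krt8 was listed at 5.42 ± 0.29 FPKM in Control and 0.91 ± 0.12 in rShh (SD, n = 3), and Krt18 at no more than 0.09 in any sample. Acan, the aggrecan gene, was at 6.80 ± 0.91 FPKM in Control and 71.0 ± 1.11 in rShh. Markers of leukocytes, epithelium and platelets were below 1 FPKM in every sample. Of 4 endothelial markers, Tek alone reached 1 FPKM, in Control.

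Among the 32 members that passed the filter on low counts, 19 rose, 6 fell and 7 did not pass the test (edgeR's quasi-likelihood test, Benjamini-Hochberg adjusted p below 0.05 over 14775 genes). Over all tested genes the background was high: 60.3% passed in either direction, 31.5% as higher and 28.8% as lower in rShh. The members' shares were 59.4% higher and 18.8% lower. Their median log2 change was 0.41, beside 0.01 over all tested genes. FPKM values of the groups did not overlap for 26 of the 32 members, against 67.6% of all tested genes. Changes of at least 2-fold that passed the test were counted for 11 members upward and 3 downward, where 13% and 5.71% of all tested genes showed them. In bulk RNA, fewer cells of a type and less RNA per cell cannot be told apart. Itgb7, the partner of leukocyte alpha chains, had 4, 0 and 0 counts in Control and 0, 3 and 6 in rShh and was not tested. Itga9 passed the filter only through its rShh libraries and Itgb6 only through its Control libraries. Without Itga9, 18 of 31 members rose (58.1%), 10 of them by at least 2-fold, and the median log2 change was 0.36.

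Among 18 tested chains, 13 rose and 2 fell, and the median log2 change was 0.92. Without Itga9, 12 of 17 rose and the median was 0.80. Among 14 adaptors, 6 rose (42.9%) and 4 fell (28.6%), beside 31.5% and 28.8% of all tested genes, and the median was 0.12. The other 3 chains and 4 adaptors missed the threshold. The difference between chains and adaptors was not tested. By ligand class, 2 of 4 collagen-binding chains rose and none fell, 2 of 4 laminin-binding chains rose and 2 fell, and 6 of 7 RGD-binding chains rose and none fell.

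**Figure D1:**
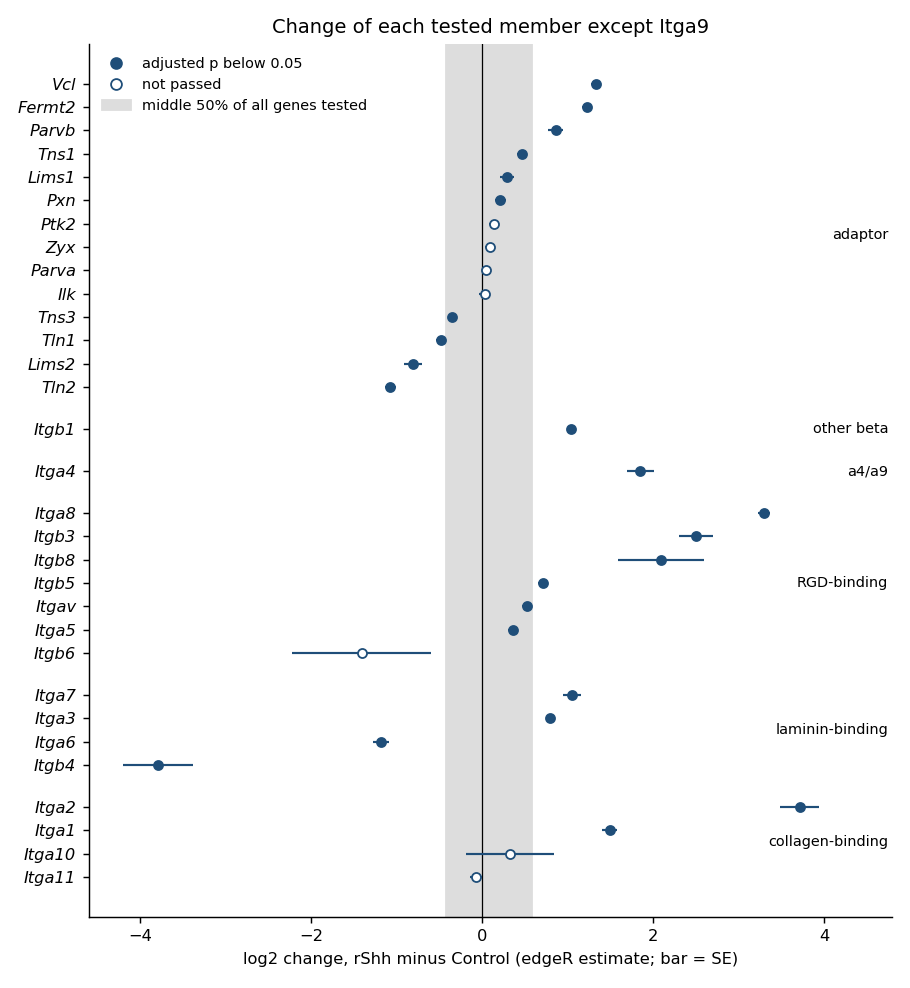
Log2 change of each tested member except Itga9 between rShh and Control (x axis, edgeR on counts, bars are standard errors), grouped by ligand class, with filled points past the threshold and a grey band for the middle 50% of all tested genes (-0.42 to 0.59). Itga8 at 3.29 and Itga2 at 3.71 lie far to the right and Itgb4 at -3.79 far to the left, while the adaptors lie between -1.08 and 1.33.

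Collagen receptors. Itga1 and Itga2 rose, while the most abundant member, Itga11, and the least abundant, Itga10, did not pass the test. Itga1 encodes a receptor chain that favours basement-membrane collagens and lies on chromosome 2 at 47127219 to 47281421, minus strand. Itga1 measured 20.9, 19.9 and 16.05 FPKM in the Control samples and 52.0, 56.3 and 52.8 in the rShh samples. Every rShh sample stood well above every Control sample. Its mean went from 19.0 ± 2.59 to 53.7 ± 2.30 FPKM (SD, n = 3), a log2 change of 1.49 (SE 0.09, edgeR adjusted p = 3.3e-07).

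Itga2, a chain that favours fibrillar collagens, is the neighbour of Itga1 on the same strand (47000323 to 47096961), with 30257 bases between them. It was at 0.129, 0.110 and 0.0846 FPKM in Control, which is 34, 28 and 20 counts. In rShh it was at 1.48, 1.305 and 1.58 FPKM, from 446, 411 and 473 counts. The groups were far apart, yet Itga2 remained among the low integrin chains. The fold was 13.1 (log2 3.71, SE 0.23, edgeR adjusted p = 4.49e-07).

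Itga11, the mesenchymal receptor for fibrillar collagen, is on chromosome 8 at 67615635 to 67683973, plus strand. Its FPKM values were 123, 149 and 139 in Control and 129, 134 and 132 in rShh. The rShh values lay inside the Control range. Its log2 change was -0.07 (SE 0.07, edgeR adjusted p = 0.428), which does not show that the levels are equal. Without Control replicate 1, the lowest Control sample, the change was -0.15 with an adjusted p of 0.0112. Itga10, a cartilage-type collagen receptor, had 41, 14 and 33 counts in Control and 47, 56 and 34 in rShh. Its groups overlapped at levels between 0.0421 and 0.135 FPKM (log2 0.33, SE 0.51, edgeR adjusted p = 0.609). The ratio of Itga1 to Itga11 in FPKM was 0.140 ± 0.0280 in Control and 0.407 ± 0.0106 in rShh.

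**Figure D2:**
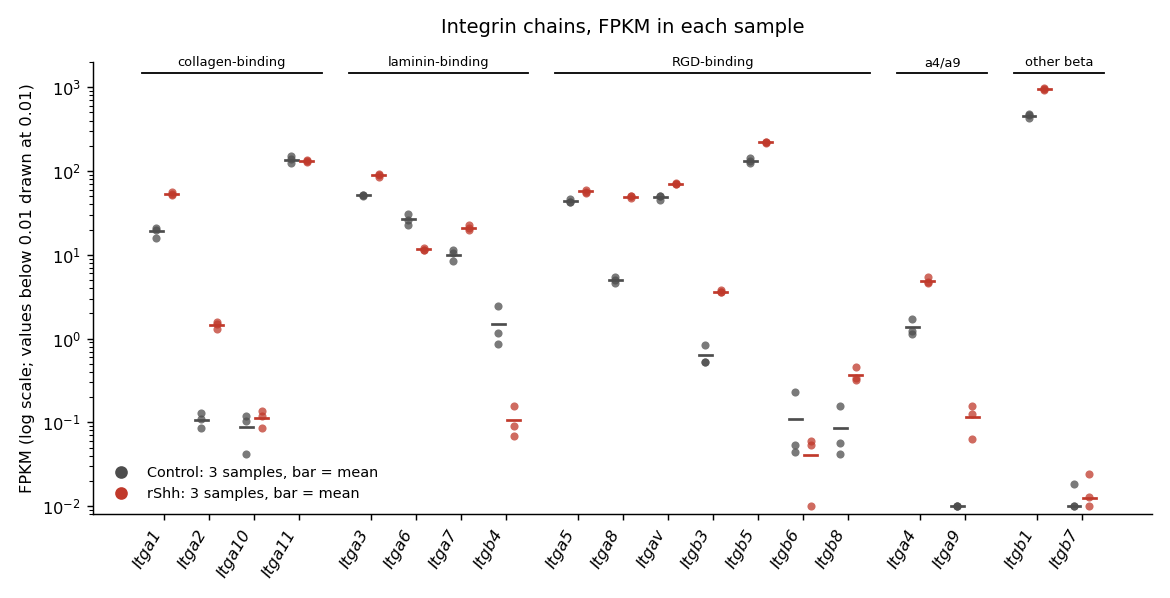
FPKM of the integrin chains in each sample (y axis, log scale, points are 3 samples per group, bars are means, values below 0.01 drawn at 0.01). Itgb1 is the highest chain in both groups, the Itga11 points of the groups overlap, and Itga8 has means of 5.00 in Control and 49.5 in rShh.

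Laminin receptors. The 4 members of this class all passed the test, with 2 in each direction. Over all tested genes 60.3% passed, 31.5% as higher and 28.8% as lower in rShh. Itga3, the alpha chain of a receptor for laminins of epithelial and vascular basement membranes, is on chromosome 10 at 82855613 to 82887497, minus strand. It was at 49.8, 51.2 and 52.4 FPKM in Control and at 90.6, 92.3 and 85.4 in rShh. Each rShh sample exceeded each Control sample, and the spread within groups was narrow. Itga3 rose by 0.80 on the log2 scale (SE 0.05, edgeR adjusted p = 7.91e-07).

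Itga6, a broad laminin receptor chain known from nucleus pulposus and epithelial cells, lies on chromosome 3 at 58443101 to 58515124, plus strand. It moved the other way, from 30.8, 25.9 and 22.6 FPKM in Control to 11.5, 11.5 and 12.2 in rShh. All Control samples were above all rShh samples, with the wider spread in Control. Itga6 fell by 1.18 on the log2 scale (SE 0.09, edgeR adjusted p = 2.92e-06), from 26.4 ± 4.12 to 11.7 ± 0.408 FPKM. The ratio of Itga3 to Itga6 in FPKM was 1.97 ± 0.352 in Control and 7.64 ± 0.557 in rShh.

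Itgb4, whose long cytoplasmic tail binds keratin-linked plectin in hemidesmosomes, is on chromosome 10 at 104523996 to 104561078, plus strand. Its counts were 1096, 504 and 361 in Control and 49, 87 and 37 in rShh. In FPKM these were 2.42, 1.15 and 0.869 against 0.0911, 0.157 and 0.0686. Control replicate 1 was the highest by far, and no rShh sample reached the lowest Control sample. Itgb4 fell by 3.79 on the log2 scale (SE 0.41, edgeR adjusted p = 2.56e-05), a level 13.9-fold lower. Itga7, the laminin receptor chain best known from muscle, rose at chromosome 7, 3355116 to 3384675, plus strand. Its values were 8.47, 10.4 and 11.3 FPKM in Control and 20.0, 22.5 and 20.7 in rShh. The groups were separate, and the log2 change was 1.05 (SE 0.10, edgeR adjusted p = 1.1e-05).

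RGD receptors. The member with the smallest adjusted p was Itga8, a chain of mesenchymal and smooth muscle cells that binds nephronectin, fibronectin and osteopontin with Itgb1. Itga8 lies on chromosome 17 at 79321900 to 79676499, minus strand. It was at 4.99, 5.42 and 4.597 FPKM in Control and at 47.7, 50.8 and 49.8 in rShh. The samples within each group lay close together, and the groups differed 9.81-fold. The log2 change was 3.29 (SE 0.07, edgeR adjusted p = 7.59e-10).

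The common fibronectin and vitronectin receptor chains rose by less. Itga5, the alpha chain of the classical fibronectin receptor, is on chromosome 7 at 144970444 to 144993652, minus strand. It measured 42.9, 43.2 and 46.4 FPKM in Control and 54.9, 59.4 and 56.8 in rShh (log2 0.36, SE 0.05, edgeR adjusted p = 0.000233). Itgav, the shared partner of most RGD-binding beta chains, is on chromosome 3 at 71114100 to 71202411, plus strand. It measured 50.7, 50.6 and 44.9 FPKM in Control and 69.2, 72.9 and 69.5 in rShh (log2 0.52, SE 0.06, edgeR adjusted p = 2.9e-05). For both chains the groups were separate. Itgb5, a vitronectin receptor chain, is on chromosome 11 at 70056500 to 70172372, minus strand, and is typed in the table as a processed transcript. Itgb5 was the most abundant chain of the class, at 124, 133 and 143 FPKM in Control and 216, 223 and 219.8 in rShh. Again no values overlapped, and it rose by 0.71 on the log2 scale (SE 0.06, edgeR adjusted p = 3.99e-06).

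The low beta partners of Itgav differed among themselves. Itgb3, known from platelets, osteoclasts and migrating cells, lies on chromosome 10 at 92667869 to 92783410, plus strand. It had 85, 82 and 125 counts in Control and 670, 735 and 665 in rShh. Its level went from 0.633 ± 0.181 to 3.64 ± 0.0981 FPKM with separate groups, a 5.67-fold difference (log2 2.50, SE 0.20, edgeR adjusted p = 3.04e-06). Itgb8, a partner that presents latent TGF-beta, had 37, 13 and 9 counts in Control and 87, 130 and 93 in rShh. Its groups were separate at low levels, and its log2 change was 2.09 (SE 0.50, edgeR adjusted p = 0.00455). Without Control replicate 1 its fold was 7.27, against 4.27. Itgb6, an epithelial chain with the same TGF-beta ligand, had 73, 14 and 16 counts in Control and 20, 4 and 22 in rShh. Its groups overlapped and it did not pass the test (log2 -1.41, SE 0.81, edgeR adjusted p = 0.159). Without Control replicate 1 the log2 change was -0.30 (adjusted p = 0.777).

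Itga4 and Itga9 form a separate pair that binds fibronectin splice forms, VCAM and tenascin or osteopontin sites outside the RGD motif. Itga4, on chromosome 3 at 66193059 to 66263960, plus strand, was at 1.24, 1.13 and 1.70 FPKM in Control and at 4.58, 5.46 and 4.73 in rShh. The rShh samples were all higher, with a fold of 3.60 (log2 1.85, SE 0.16, edgeR adjusted p = 5.29e-06). Itga9, on chromosome 8 at 127271289 to 127572988, plus strand, had 0 counts in every Control sample and 31, 17 and 38 counts in rShh. A floor of 3 counts per Control library was 0.0530 to 0.0591 CPM, with a mean of 0.0560. The mean rShh level of Itga9, 0.435 ± 0.173 CPM, was 7.77-fold above that mean floor. Since it was tested only through the group where it is high, no p is given. Floors cover counting error only.

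Itgb1 pairs with most alpha chains named here and was the most abundant integrin chain in both groups. It lies on chromosome 19 at 61677542 to 61725535, plus strand. Its FPKM values were 478, 466 and 429 in Control and 948, 967 and 926 in rShh. The groups were far apart relative to their spread, and the level was 2.06-fold higher (log2 1.04, SE 0.05, edgeR adjusted p = 5.72e-08).

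Levels per length allow the chains to be ordered. In Control, Itgb1 came before Itga11 and Itgb5, whose samples overlapped, then Itga3, Itgav and Itga5, where Itgav overlapped both of its neighbours, then Itga6, Itga1, Itga7 and Itga8. In rShh the order was Itgb1, Itgb5, Itga11, Itga3, Itgav, then Itga1 and Itga5 with overlapping samples, then Itga8, Itga7 and Itga6. Itga6 therefore stood above Itga1, Itga7 and Itga8 in Control by mean and below all of them in rShh.

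The summed FPKM of the 12 alpha chains was 343 ± 12.4 in Control and 491 ± 13.6 in rShh, and that of the 7 beta chains 594 ± 16.9 and 1171 ± 22.2. These sums and the shares below are descriptions without a test. Collagen-binding chains took 45.5 ± 2.06% of the alpha-chain sum in Control and 38.1 ± 0.254% in rShh. Their own summed FPKM was higher in rShh, at 183 to 192 against 144 to 169 in Control. RGD-binding chains took 28.5 ± 0.936% and 36.0 ± 0.300%, and laminin-binding chains 25.6 ± 1.12% and 24.9 ± 0.494%. The near-equal laminin share held within it opposite movements, with Itga3 at 14.9 ± 0.555% and 18.2 ± 0.612% and Itga6 at 7.72 ± 1.36% and 2.39 ± 0.124%. Itga11 alone took 39.9 ± 2.60% in Control and 26.8 ± 0.331% in rShh, although its own level did not pass the test. The share of Itga8 was 1.46 ± 0.0900% in Control and 10.1 ± 0.177% in rShh, and that of Itga1 was 5.53 ± 0.781% and 10.9 ± 0.164%. Among the other RGD-binding alpha chains, Itga5 took a smaller share in rShh, at 12.9 ± 0.787% in Control and 11.6 ± 0.174% in rShh. Itgav took 13.2% to 15.2% in Control and 14.3% to 14.4% in rShh, inside the Control range. The higher RGD-binding share in rShh thus lay in Itga8 and not in the class as a whole. Itgb1 made up 77.1 ± 2.15% of the beta-chain sum in Control and 80.9 ± 0.308% in rShh. Its ratio to the alpha-chain sum was 1.34 ± 0.0896 and 1.93 ± 0.0354.

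**Figure D3:**
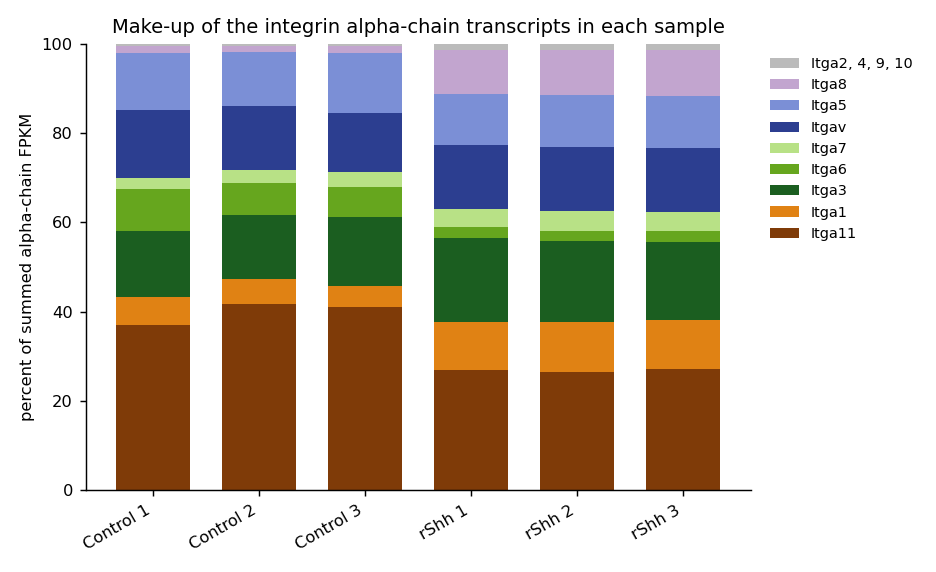
Share of the summed alpha-chain FPKM taken by each chain (y axis in percent, 1 stacked bar per sample; brown and orange are collagen-binding, greens laminin-binding, blues and violet RGD-binding chains). In all 3 rShh bars the Itga11 and Itga6 segments are smaller and the Itga1 and Itga8 segments larger than in any Control bar.

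Adaptors. Vcl encodes vinculin, which binds talin under tension and recruits actin, and lies on chromosome 15 at 3455211 to 3544702, minus strand. Vcl was the highest adaptor in both groups, at 145, 147 and 129 FPKM in Control and 353, 360.1 and 349 in rShh. The groups were far apart, and the log2 change was 1.33 (SE 0.05, edgeR adjusted p = 2.41e-08). Fermt2, the kindlin that binds beta tails in most adherent cells, is on the same chromosome at 19807808 to 19876408, minus strand. It was at 63.7, 61.2 and 55.2 FPKM in Control and at 139.9, 140.9 and 142 in rShh. With separate groups, Fermt2 rose by 1.22 on the log2 scale (SE 0.06, edgeR adjusted p = 7.08e-08).

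Both talins fell. Tln1, the widespread talin, is on chromosome 5 at 59033636 to 59063592, minus strand, and was at 108, 111 and 116 FPKM in Control and 79.6, 81.2 and 80.0 in rShh. Tln2, the talin of muscle and brain, was at 10.4, 10.2 and 9.27 FPKM in Control and 4.63, 4.98 and 4.64 in rShh. For both genes each Control sample exceeded each rShh sample. Tln1 fell by 0.49 (SE 0.05, edgeR adjusted p = 1.18e-05) and Tln2 by 1.08 (SE 0.07, adjusted p = 4.23e-07) on the log2 scale. The ratio of Tln1 to Tln2 was 11.3 ± 1.11 in Control and 16.9 ± 0.522 in rShh. The ratio of Vcl to Tln1 was 1.26 ± 0.126 and 4.41 ± 0.0462, and that of Fermt2 to Tln1 was 0.539 ± 0.0587 and 1.76 ± 0.0195.

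Within the complex of integrin-linked kinase, PINCH and parvin, the kinase and the main parvin did not pass the test. The other parvin, Parvb, rose, and the PINCH genes Lims1 and Lims2 differed in direction. Ilk was at 99.7, 108 and 115 FPKM in Control and 109, 111 and 113 in rShh (log2 0.03, SE 0.06, edgeR adjusted p = 0.683). Parva was at 64.5, 63.2 and 59.9 FPKM in Control and 63.6, 65.6 and 64.9 in rShh (log2 0.04, SE 0.05, edgeR adjusted p = 0.483). Both had overlapping groups, and the sign of each turned negative under some other scalings.

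Parvb, the second parvin, was at 6.22, 6.57 and 7.15 FPKM in Control and 11.4, 13.3 and 11.7 in rShh. It rose by 0.86 on the log2 scale with separate groups (SE 0.08, edgeR adjusted p = 1.21e-05). Of the PINCH genes, Lims2 was at 33.2, 43.7 and 43.6 FPKM in Control and 23.3, 22.5 and 23.7 in rShh. Control replicate 1 lay closest to the rShh samples, but the groups did not overlap, and Lims2 fell by 0.80 (SE 0.10, edgeR adjusted p = 8.4e-05). Lims1 was at 33.7, 28.0 and 26.3 FPKM in Control and 34.4, 36.3 and 37.5 in rShh. The gap between its groups was small, with a log2 change of 0.29 (SE 0.09, edgeR adjusted p = 0.0137). That call was lost without Control replicate 2 (adjusted p = 0.0567) or without rShh replicate 3 (0.0588). Lims1 was below Lims2 on average in Control, with a ratio of 0.753 ± 0.228, and above it in rShh, with 1.56 ± 0.0719.

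The tensins, which bind beta tails and actin in fibrillar adhesions, split by gene. Tns1 was at 11.3, 12.0 and 11.6 FPKM in Control and 15.8, 16.3 and 16.2 in rShh, and rose by 0.46 (SE 0.06, edgeR adjusted p = 4.73e-05). Tns3 was at 38.6, 40.0 and 38.4 FPKM in Control and 30.4, 32.5 and 29.6 in rShh, and fell by 0.35 (SE 0.05, edgeR adjusted p = 0.000216). Neither had overlapping groups, and the ratio of Tns3 to Tns1 was 3.36 ± 0.0675 in Control and 1.91 ± 0.0831 in rShh.

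Pxn encodes paxillin, a docking protein for focal adhesion kinase and vinculin, on chromosome 12 at 46797954 to 46845080, minus strand. It was at 17.4, 17.6 and 19.5 FPKM in Control and 20.9, 20.9 and 21.8 in rShh, a log2 change of 0.21 (SE 0.07, edgeR adjusted p = 0.0165). The groups were separate but near each other. The call was lost with upper-quartile scaling (adjusted p = 0.0805) and on leaving out Control replicate 2 (0.0679). The first or the third rShh replicate left out also ended it (0.0552 and 0.0721). Ptk2, focal adhesion kinase, was at 14.7 ± 0.845 FPKM in Control and 16.3 ± 0.224 in rShh and did not pass (log2 0.14, SE 0.06, edgeR adjusted p = 0.0745). It passed without Control replicate 1 (0.0372). Zyx, the force-sensing LIM protein zyxin, had overlapping groups with a log2 change of 0.09 (SE 0.06, edgeR adjusted p = 0.200). It passed without Control replicate 3 (0.0261).

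**Figure D4:**
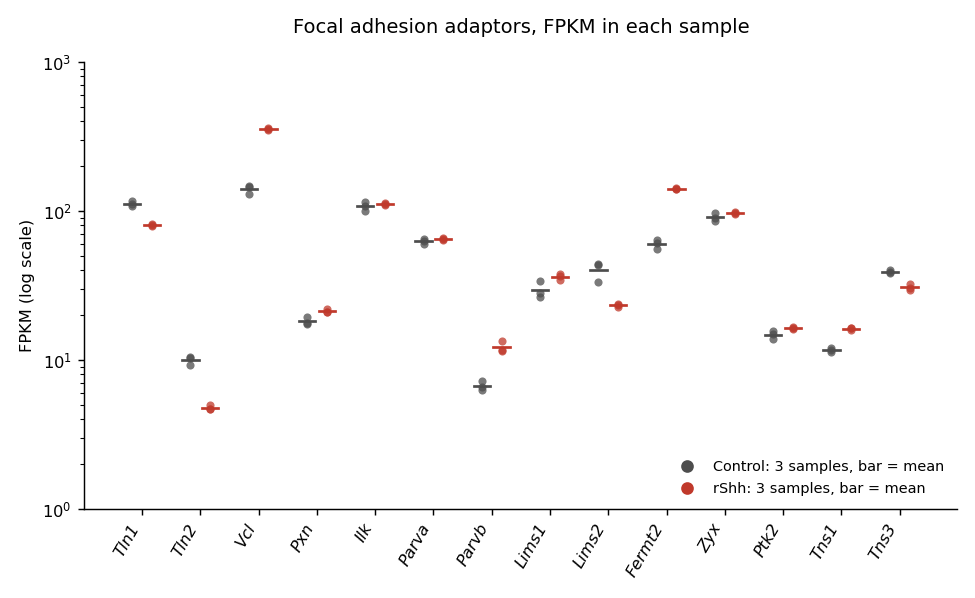
FPKM of the 14 adaptors in each sample (y axis, log scale, points are 3 samples per group, bars are means). Vcl and Fermt2 lie higher and Tln1 and Tln2 lower in rShh, while Ilk and Parva overlap between the groups.

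Promoter sequence was examined because both integrin chains and adaptors held members that rose, although others of each kind fell. RefSeq windows of 250 bases before the start of transcription, assembly GRCr8, matched 25 of the 34 members by symbol. The letters GGAATG, the core bound by TEAD factors, the partners of YAP, were searched on both strands. They occurred in windows of 7 members: Itga3, Itga10, Itgb1, Itgb8, Lims2, Vcl and Zyx. That is 24.1% of the 29 member windows, beside 12.1% of 33469 promoters of the same length. Of these 7 members, 4 rose, 1 fell and 2 did not pass the test. Of the 18 without the letters, 11 rose, 3 fell, 3 did not pass and 1 was not tested. Over all tested members 59.4% rose and 18.8% fell, and over all tested genes 31.5% and 28.8%. Whether the letters go with a rise was not tested. Matched windows of Itgb8, which also rose, of Lims2, which fell, and of Itga10 and Zyx, which did not pass, are not shown. The windows of 3 members that rose are shown, since they span a laminin receptor chain, the shared beta chain and the top adaptor, with GGAATG in capitals.
Itga3: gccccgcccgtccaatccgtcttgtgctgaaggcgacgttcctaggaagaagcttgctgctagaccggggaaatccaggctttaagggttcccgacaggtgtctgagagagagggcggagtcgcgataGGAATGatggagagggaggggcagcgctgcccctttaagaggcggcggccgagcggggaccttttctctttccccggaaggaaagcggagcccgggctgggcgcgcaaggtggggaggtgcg
Itgb1: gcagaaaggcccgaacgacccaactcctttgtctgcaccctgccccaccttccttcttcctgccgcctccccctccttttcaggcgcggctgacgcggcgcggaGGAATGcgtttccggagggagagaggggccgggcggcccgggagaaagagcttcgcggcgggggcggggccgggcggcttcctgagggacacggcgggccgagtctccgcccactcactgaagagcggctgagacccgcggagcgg
Vcl: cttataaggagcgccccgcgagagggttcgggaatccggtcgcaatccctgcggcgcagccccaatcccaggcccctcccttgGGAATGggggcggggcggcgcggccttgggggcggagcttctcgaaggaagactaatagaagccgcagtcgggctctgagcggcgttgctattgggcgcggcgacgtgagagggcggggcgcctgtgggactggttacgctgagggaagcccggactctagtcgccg

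The match began 122 bases before the start in Itga3 (chr10:80518902-80519151, minus strand), 146 bases before it in Itgb1 (chr19:73602027-73602276, plus strand) and 167 bases before it in Vcl (chr15:3404801-3405050, minus strand). A match is a description of the sequence and not a binding site. The letters GACCACCCA, the site of the Hedgehog effector GLI, occurred in no member window on either strand and in 0.338% of all promoters. The CArG box of serum response factor occurred in 1 member, Itgb6, and in 1.497% of all promoters. No match says only that these letters are not in this window.

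Transcript values showed where gene totals hid a different pattern. The deposited isoform table held 48 transcripts of members, of which 45 were tested. Of these, 18 rose and 6 fell, and 2 of the 18, from Itga9 and Pxn, passed the filter only through rShh. Over all 18180 tested transcripts, 45.1% passed in either direction, 23.8% as higher and 21.3% as lower. Gene and transcript values rest on the same reads and are not independent.

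The small gene-level change of Pxn summed 2 transcripts with different patterns. The transcript ENSRNOT00000047466, with 10 exons, had 0, 3 and 0 counts in Control and 2119, 2396 and 2036 in rShh. No p is given for it, since only its rShh libraries passed the filter. It was at 7.33, 7.91 and 7.09 FPKM in rShh and made up 35.0 ± 2.71% of the gene there, against 0.0237 ± 0.0410% in Control. The transcript ENSRNOT00000064115, with 11 exons, was at 17.9, 18.1 and 20.0 FPKM in Control and 13.97, 13.3 and 15.2 in rShh. The 10-exon transcript was thus at or near 0 in all Control samples, and the 11-exon one fell by 0.41 on the log2 scale (SE 0.08, edgeR adjusted p = 0.00671). The 2 transcripts start and end within 5 bases of each other, so most reads must be divided between them by estimation.

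For Itgb3, ENSRNOT00000073350, with 27 exons, was at 0.533, 0.535 and 0.456 FPKM in Control and 1.59, 1.71 and 1.75 in rShh (log2 1.70, edgeR adjusted p = 0.000711). The transcript ENSRNOT00000082780, with 10 exons, had 0, 0 and 58 counts in Control and 376, 404 and 343 in rShh. It was above every Control sample in rShh, where it took 54.2 ± 2.36% of the gene, but did not pass the test (edgeR adjusted p = 0.104). For Vcl, ENSRNOT00000015179 was at 127, 146 and 101 FPKM in Control and 262, 372 and 359 in rShh (log2 1.39, edgeR adjusted p = 0.00135). Its other transcript, ENSRNOT00000085126, varied within groups, from 9.90 to 47.8 FPKM in Control and from 5.12 to 151 in rShh, and did not pass (edgeR adjusted p = 0.661). Neither transcript of Itgb4 passed (edgeR adjusted p = 0.0935 and 0.0624), although the gene did.

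**Figure D5:**
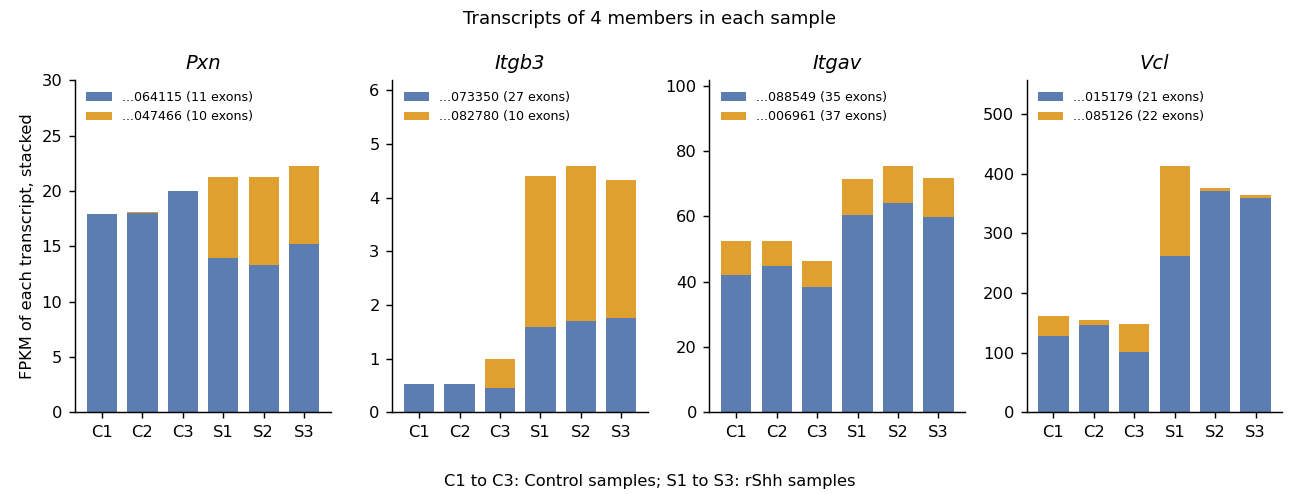
FPKM of the 2 transcripts each of Pxn, Itgb3, Itgav and Vcl (y axis, stacked, 1 bar per sample, 3 Control and 3 rShh; legends give the last digits of each transcript ID and its exons). The 10-exon Pxn transcript is at or near 0 in Control and between 7.09 and 7.91 in rShh, and the split of Vcl differs between samples of 1 group.

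Other focal adhesion genes and integrin ligands were read beside the members. Of 52 tested rows of other focal adhesion genes (Cttn stands on 2), 25 rose (48.1%) and 12 fell (23.1%), beside 31.5% and 28.8% of all tested genes, and the median log2 change was 0.17. Those with the smallest p upward included Nexn, an actin-binding protein of muscle, at 14.9 ± 1.44 FPKM in Control and 81.3 ± 2.10 in rShh (log2 2.44). Kank1, a talin-binding protein of the adhesion rim, was at 40.8 ± 0.424 and 92.6 ± 1.62 FPKM (log2 1.17). Cav1, the caveolar coat gene, was at 127 ± 7.92 and 310.1 ± 4.395 (log2 1.28). The LIM protein gene Pdlim5 also rose, by 1.14. Downward, the tyrosine kinase gene Fyn was at 9.89 ± 0.243 and 3.39 ± 0.326 FPKM (log2 -1.55), and Src at 39.2 ± 1.48 and 27.2 ± 0.04996 (log2 -0.54). Rapgef1, Arhgef2 and Evl fell by 0.72, 0.56 and 0.70.

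Of the 33 ligand genes tested, 14 rose (42.4%) and 10 fell (30.3%), around a median of 0.13. The downward share lies near the 28.8% of all tested genes, and 31.5% of those were higher. The RGD ligand osteopontin, Spp1, was at 642 ± 26.5 FPKM in Control and 2323 ± 95.2 in rShh (log2 1.84). Fibronectin, Fn1, was at 1168 ± 49.9 and 2624 ± 136 (log2 1.16), and the tenascin gene Tnn at 26.4 ± 2.35 and 178 ± 11.0 (log2 2.75). Laminin chains differed, with Lamb1 at 7.99 ± 0.695 and 32.4 ± 0.747 FPKM (log2 2.01), Lama4 higher by 1.26, and Lamb2 lower at 75.9 ± 3.28 and 53.6 ± 0.915 (log2 -0.51). The collagen gene Col1a1 fell from 5049 ± 181 to 2368 ± 22.2 FPKM (log2 -1.10). Edil3, an RGD protein, fell by 2.05, Ccn2 by 0.46 and Svep1 by 0.60. All of these passed edgeR's test.

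None of the 3 tested integrin chains outside the set passed the test (edgeR), none had an unadjusted p under 0.05, and DESeq2 called 0. Itgae was at 1.02 ± 0.111 FPKM in Control and 0.856 ± 0.228 in rShh, and Itgax at 0.0924 ± 0.0369 and 0.193 ± 0.0551 with an edgeR adjusted p of 0.0785. Itga2b had overlapping groups (edgeR adjusted p = 0.971), and Itgam was not tested.

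Markers of smooth muscle cells and pericytes, which also express Itga1, Itga7, Itga8 and Vcl, moved in the same samples. Of 8 tested, 6 rose (75%, beside 31.5% of all tested genes), among them Myh11 from 3.04 to 33.1 FPKM and Cnn1 from 43.8 to 226 on average. Mcam fell, and Acta2 did not pass (edgeR adjusted p = 0.0507). Their summed FPKM ran from 2109 to 3137 in Control and from 3531 to 3659 in rShh, most of it Acta2. Without Acta2 the sum ran from 139 to 176 in Control and from 395 to 398 in rShh, and no marker of the list was at 0 in rShh. Rgs5, which is counted among the 6, had 0 counts in Control and passed the filter on low counts only through its rShh libraries. The part of these genes in the integrin results was not tested.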

How the data were processed

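Sequencing of 6 samples (3 Control, 3 rShh) used 150-nt paired ends. Tools named in the entry, per the submitters' processing notes, are HISAT2 2.0.4, StringTie 1.3.4d, cutadapt 1.9, edgeR and DESeq2, with no roles stated. Whether counting used strand, and on which build, is not given in the sources used here. All gene positions are as deposited, and overlapping or near-identical genes can share reads. The authors deposited whole-number counts, not normalized, and FPKM values, scaled to length and library size per the file headers, for 19088 genes and for isoforms.

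Levels and ratios are FPKM, as mean ± SD over 3 samples. Changes come from the counts, fitted over all genes with edgeR 4.0.16 in R 4.3.3: filterByExpr (minimum count 10), TMM scaling, glmQLFit and glmQLFTest with group as the only term, two-sided, adjusted by Benjamini and Hochberg with a threshold of 0.05. Isoform counts were fitted the same way. Folds against a group at 0 used a floor of 3 counts per library. Members that passed and changed at least 1.5-fold, or led their class in FPKM, are given in full. Of the other focal adhesion genes and ligands, the 5 smallest p in each direction are named, except 1 gene that is not reported here. With 3 against 3 samples an exact permutation test cannot go below 0.1, so none was used. On simulated counts (14785 genes), 42% of genes changed 1.5-fold and 100% of those changed 2-fold were recovered, with 12 false calls. The simulation changed 200 genes and gave all genes the same fixed spread between replicates, not one estimated from these data. In the data 8914 of 14775 genes passed, so the simulated figures need not hold for this comparison. Alternatives were other scalings, no filter, DESeq2 1.42.0, limma 3.58.1 on log2(FPKM + 1) or log2(FPKM + 0.1), a replicate block and leaving out each replicate. The members and the gene lists were chosen with earlier results of these data known. Promoter sequences are RefSeq's, assembly GRCr8. Genes on the lists without a row are not analysed here.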

Additional observations from a re-analysis of the deposited data

How the results depend on the processing

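Across 16 alternatives, the numbers of members higher (19) and lower (6) in rShh ran from 16 to 20 and from 5 to 7. Of the single-member values, 485 kept direction and side of the threshold, 6 changed sign, 6 lost and 3 gained a call. Limma on log2(FPKM + 1) or log2(FPKM + 0.1) with a minimum mean of 1 FPKM tested fewer genes (12 integrin chains): it called 1 integrin chain lower, 1 collagen-binding chain higher, 1 laminin-binding chain lower and 1 of Itga4 and Itga9 higher. Leaving out 1 replicate moved the collagen-binding chains called lower between 0 and 1, with Itga11 called without Control replicate 1. Leaving out 1 replicate, the log2 change of Itga10 ran from -0.010 (without Control replicate 2) to 0.58 and that of Ilk from -0.032 (without Control replicate 1) to 0.085. Ilk was at -0.035 with upper-quartile scaling and -0.069 after quantile normalization, and Parva at -0.026 and -0.029. The cause was not tested. The median log2 change of all genes was 0.01 in the main fit and -0.11 after quantile normalization. It was -0.05 with upper-quartile scaling and 0.03 without Control replicate 1.

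Leaving out 1 replicate moved the difference in the collagen-binding share of alpha-chain FPKM (-7.43 percentage points) between -8.53 and -6.49, and in the RGD-binding share (7.48) between 7.11 and 8.00. This was added after the data were seen. Same-numbered samples did not deviate together (correlations -0.06, -0.02 and -0.04). No label states whether the numbers pair the samples. The correlations were taken across genes, and with only 3 samples per group they cannot settle it. With the replicate block, 19 members rose and 6 fell, and 4470 and 3970 of all genes, against 4657 and 4257. Transcript calls moved from 18 and 6 to 15 and 6. Low counts limit Itga10, Itgb6, Itgb7, Itgb8 and Itga9 most.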

Other observations

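Further transcripts of the integrin and adaptor genes were uneven between replicates. The Itga7 transcript ENSRNOT00000030453 took 32.6% to 74.3% of the gene's counts in Control and 37.6% to 64.5% in rShh. It rose (log2 1.205, edgeR adjusted p = 0.0189), but the call was lost with the replicate block (0.0543), without Control replicate 3 (0.0523), and on leaving out the first (0.0600) or the second rShh library (0.0620). For Itgav, ENSRNOT00000088549 rose by 0.54 (edgeR adjusted p = 0.00116) and made up 82.9 ± 2.77% of the gene in Control and 84.3 ± 0.833% in rShh. Its other transcript ENSRNOT00000006961 rose by 0.39 (edgeR adjusted p = 0.0434). That call was lost with the block (0.0649) and on leaving out any library but Control replicate 1 (0.0955 to 0.122). Of 3 Tln2 transcripts, 2 were tested and did not pass (edgeR adjusted p = 0.246 and 0.0583), although the gene fell. Both Lims2 transcripts fell, by 0.82 and 0.80 on the log2 scale (edgeR adjusted p = 0.00445 and 0.00427).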
